A study of Mus musculus with 6 samples.

Results

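The genes that carry a cell from G2 through mitosis were followed here as a set of 39, from the cyclins and kinases that start division to the proteins that cut the daughter cells apart. The set was taken by gene symbol from the deposited expression table, and all 39 were found, each in 1 row, among 27366 features. The cells were satellite cells, the resident stem cells of mouse skeletal muscle, grown to day 4 with 20% fetal bovine serum, basic FGF and antibiotics. Of the 6 RNA-seq libraries, 3 were labelled control and 3 Islr knockout (genotype "ko"), numbered 1 to 3 in each group. The series design says that the cells had been sorted by flow cytometry on whether they carried Islr. How Islr was removed, the strain and age of the mice, and whether each library had its own animal or culture are not given in the sources used. The p-values therefore measure only the spread between these libraries, which may be technical.

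In the cell cycle, cyclin B bound to CDK1 drives entry into mitosis, Polo and Aurora kinases build the spindle, and a checkpoint at the kinetochores delays chromosome separation until every chromosome is attached. The anaphase-promoting complex with Cdc20 then marks cyclin B for destruction, and the central spindle directs cytokinesis. The transcripts of these genes peak together in G2 and mitosis, driven by B-Myb with the MuvB complex and by FoxM1. They are repressed by the DREAM complex when cells leave the cycle, as myoblasts do before they form myotubes. In RNA from a whole culture, fewer dividing cells and less RNA per dividing cell cannot be told apart.

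Total reads on genes ran from 16456917 to 20531276 per library. Values below are scaled reads, the deposited gene counts divided by a size factor for each library. Islr itself did not follow the labels in every library. Libraries labelled control 1, 2 and 3 had 181, 12.8 and 1579 scaled reads of it, and libraries labelled Islr knockout 1, 2 and 3 had 257, 7.38 and 10.9. With 257, a library of the knockout label exceeded 2 of the control label, and every direction given below for knockout against control is one between labels. Of 12 markers of satellite cells and myoblasts, 11 had reads in every library, among them Pax7 (1233 to 2729 scaled reads) and Myod1 (18888 to 33818). Calcr, a marker of quiescent satellite cells, was at 0 in control 3 and Islr knockout 3 and at most 5.55 elsewhere, and Cd34 ran from 84.4 to 1909. The column read as control 1 carries a 4-digit name with 2 digits exchanged against its label.

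Many promoters of the 39 genes hold the same short elements, and a few are printed here. Whether these elements bear on the levels of the genes across libraries was not tested. RefSeq promoter windows on GRCm38.p6, from 250 bases before to 50 bases after the start, matched 32 of the 39 genes with 34 windows (Ect2 and Prc1 had 2 overlapping windows each). The windows were searched on both strands for the cell cycle homology region (CHR), the binding site of MuvB, as TTTGAA or as TTCGAA, and for CCAAT, the box bound by NF-Y. A CHR in either form was present in 27 of 34 member windows (79.4%), against 14.3% of 16597 windows of all genes tested. CCAAT was present in 28 of 34 (82.4%), against 36.9%, and 19 windows held at least 2 copies (55.9%, against 12.9%). Both elements together were in 25 windows (73.5%, against 5.75%). A TATAAA match was in 1 window (2.94%, against 8.19%), which is too few to compare these shares. No searched element contains another, and a match is a description of sequence, not a shown binding site.

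The promoters of 6 genes with both elements in the 150 bases before the start are shown, 5′ to 3′ on the strand of the gene, with CHR and CCAAT matches of either strand in capitals. They are those of the mitotic kinase Cdk1 (chr10:69352913-69353062, minus strand), the anaphase activator Cdc20 (chr4:118437344-118437493, minus), the ubiquitin-conjugating enzyme Ube2c (chr2:164769779-164769928, plus), the topoisomerase Top2a (chr11:99024190-99024339, minus), the cyclin Ccnf (chr17:24251410-24251559, minus) and the spindle motor Kif11 (chr19:37376232-37376381, plus).
Cdk1: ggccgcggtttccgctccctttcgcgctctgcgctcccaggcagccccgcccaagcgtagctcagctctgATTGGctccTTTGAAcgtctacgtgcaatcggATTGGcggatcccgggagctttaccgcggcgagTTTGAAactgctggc
Cdc20: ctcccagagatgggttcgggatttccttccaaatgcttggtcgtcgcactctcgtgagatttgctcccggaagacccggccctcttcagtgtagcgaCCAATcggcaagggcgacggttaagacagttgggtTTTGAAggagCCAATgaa
Ube2c: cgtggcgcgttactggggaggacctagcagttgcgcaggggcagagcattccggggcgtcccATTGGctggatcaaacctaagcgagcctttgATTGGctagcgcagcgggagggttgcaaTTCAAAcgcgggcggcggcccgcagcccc
Top2a: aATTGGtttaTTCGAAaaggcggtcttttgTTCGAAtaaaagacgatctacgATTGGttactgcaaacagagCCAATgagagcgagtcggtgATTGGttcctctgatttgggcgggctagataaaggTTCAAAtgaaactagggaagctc
Ccnf: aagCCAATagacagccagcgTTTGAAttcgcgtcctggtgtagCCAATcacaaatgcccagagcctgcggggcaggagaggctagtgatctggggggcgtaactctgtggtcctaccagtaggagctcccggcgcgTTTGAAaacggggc
Kif11: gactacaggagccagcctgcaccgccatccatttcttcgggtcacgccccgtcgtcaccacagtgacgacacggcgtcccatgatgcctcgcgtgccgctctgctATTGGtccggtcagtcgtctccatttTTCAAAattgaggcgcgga

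In Cdk1 and Cdc20 the CHR nearest to the start begins at base -15 and -18, with -1 as the last base before the start. In Ube2c and Kif11 it lies on the other strand, with its leftmost base at -29 and -19. Cdk1, Cdc20, Ube2c and Ccnf carry 2 CCAAT boxes in the stretch shown, Top2a carries 4 and Kif11 carries 1. Ect2, Mki67 and Prc1 also held both elements in the 150 bases before the start and are not shown. The stretches shown do not stand for the whole set. In other genes, such as Aurka, Plk1 and Racgap1, the only CHR match began after the start, at base 33, 31 and 6. The windows of 7 genes (Birc5, Ccnb1, Cenpe, Mad2l1, Mybl2, Nek2 and Nusap1) held no CHR letters, which says only that these letters are not in these windows. The genes without a window were Aurkb, Ccna2, Cdc25c, Foxm1, Incenp, Kif20a and Tpx2.

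**Figure D1:**
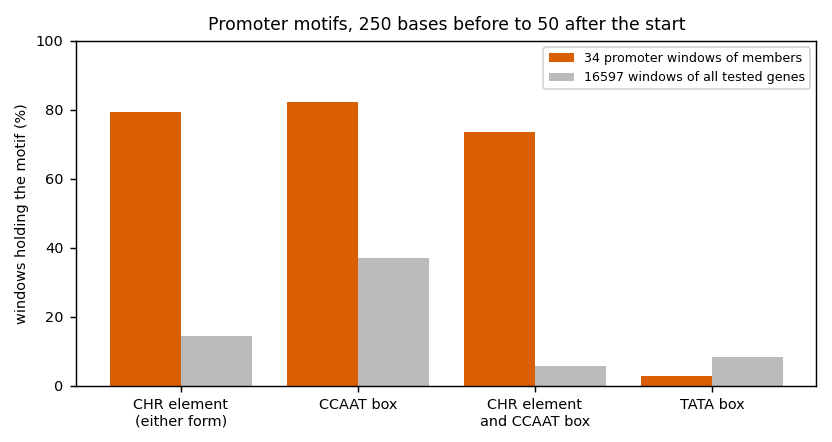
Share of promoter windows (vertical axis, %) that hold each element, for the 34 windows that matched 32 of the 39 genes (orange) and for the 16597 windows of all tested genes (grey). A CHR and a CCAAT box occur together in 73.5% of member windows and 5.75% of all.

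All 39 genes were expressed in every library. The lowest single value was 152 scaled reads (Cdc25c in the library labelled Islr knockout 3) and the highest 11016 (Top2a in that labelled control 2), so all 39 passed the filter of a mean of at least 1. Per length, in the FPKM values of the authors, mean levels over the 6 libraries ran from 4.91 to 72.2 with a median of 24.0. The ubiquitin pathway genes of mitotic exit were on top, Ube2c at 72.2 and Cdc20 at 70.8 FPKM, followed by Top2a, which untangles chromosomes, at 63.7. The lowest were the large kinetochore protein genes Cenpf (4.91) and Cenpe (8.16) and the phosphatase gene Cdc25c (6.14). FPKM depend on the transcript length used: per kilobase of the annotated exon union, Cdc20 ranked above Ube2c, Plk1 ranked above Top2a, and Cdc25c, Cenpf and Ttk were the lowest.

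As a share of reads, the 39 genes took 0.297%, 0.641% and 0.276% in control 1, 2 and 3 (by label) and 0.302%, 0.490% and 0.253% in Islr knockout 1, 2 and 3. Their summed level was 825, 1838 and 808 FPKM in control and 804, 1440 and 724 FPKM in knockout. The library of number 2 was thus highest in both groups by either measure. In numbers 2 and 3 the control library was above the knockout library by both measures, and in number 1 the order depended on the measure. For every 1 of the 39 genes, the library labelled control 2 was the highest of the 6; it was the highest for 21.0% of all 20344 genes tested. The library labelled Islr knockout 2 came second for 36 genes. Both libraries of number 2 stood above the other 4 for 36 of 39 genes, against a background of 11.5%.

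**Figure D2:**
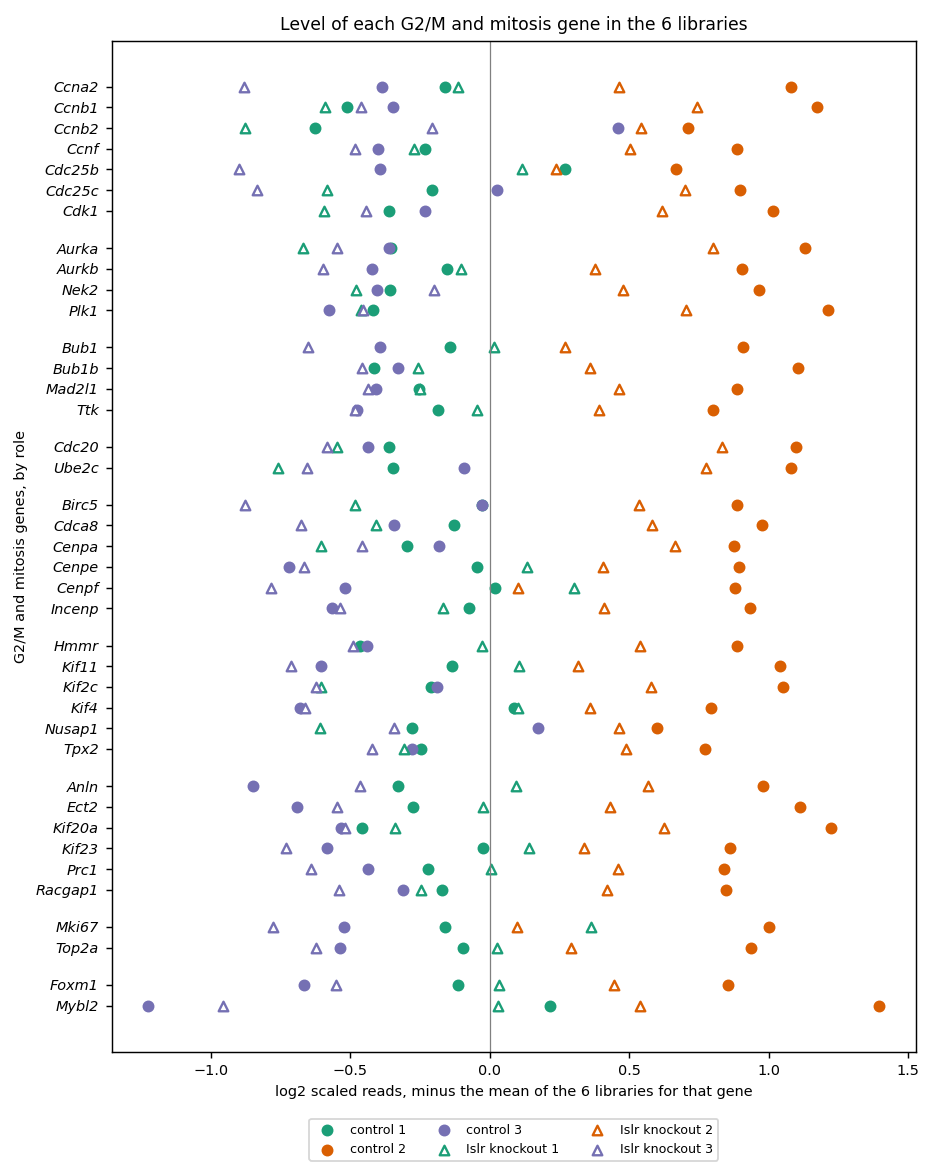
Level of each gene (rows, grouped by role) in each library as log2 scaled reads minus the mean of that gene over the 6 libraries (horizontal axis). Filled circles are libraries labelled control and open triangles those labelled Islr knockout, coloured by number. Control 2 lies farthest to the right in all 39 rows, and Islr knockout 2 is next in 36.

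The first comparison asked whether the labelled loss of Islr went with a change in the RNA levels of these genes. No gene of the set passed the test (limma, Benjamini-Hochberg adjusted p under 0.05; adjusted p = 1.0 for all 39), and none had an unadjusted p under 0.05 in limma, edgeR or DESeq2 (limma, all genes: 1.15% higher, 0.211% lower). Over all 20344 genes tested, 0.0% were called lower and 0.0% higher. At an unadjusted p under 0.05 there were 276 genes in limma, 162 in edgeR and 318 in DESeq2. On the log2(scaled reads + 1) scale, the fitted difference was below 0 for 37 of the 39 genes, with a median of -0.21, against 47.0% of all genes and a median of 0.03. The 37 genes share the high value of control 2, so they are not 37 separate observations. The smallest unadjusted p in the set was 0.212, for Birc5, and the 95% confidence intervals of the 39 genes lay between -1.86 and 1.34. No gene of the set had groups that did not overlap, a pattern that 2.11% of all genes showed in the lower and 2.65% in the higher direction.

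Replicate numbers occur in both groups, and same-numbered libraries deviated from their group means together. Within number 1, the knockout library was the lower for 20 of 39 genes, with a median log2 difference of -0.04 (45.5% of all genes were below 0). Within number 2 it was the lower for all 39, with a median of -0.43 (48.4%). Within number 3 it was the lower for 29, with a median of -0.15 (47.6%). The control library was above its partner in all 3 numbers for 16 genes, against 12.1% of all genes. With the number as a block, 0 genes of the set passed (limma, smallest adjusted p = 0.92), and 3 had an unadjusted p under 0.05, where 0.924% of all genes did so in the lower and 3.66% in the higher direction: Birc5 (0.0206), Kif2c (0.0443) and Ube2c (0.0463). The median standard error of the 39 genes was 0.20 with the block and 0.43 without it. Values after ± below are from the fit without the block.

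The sign of the set's median rested on single libraries. Without the library labelled control 2 the median was 0.22, with 6 of 39 genes below 0, and without Islr knockout 3 it was 0.03, with 16 below 0. It was -0.15 without Islr knockout 1 and between -0.47 and -0.35 without each of the other 3. The table deposited by the authors lists a log2 fold change below 0 for all 39 genes, from -0.50 for Mybl2 to -0.02 for Anln.

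**Figure D3:**
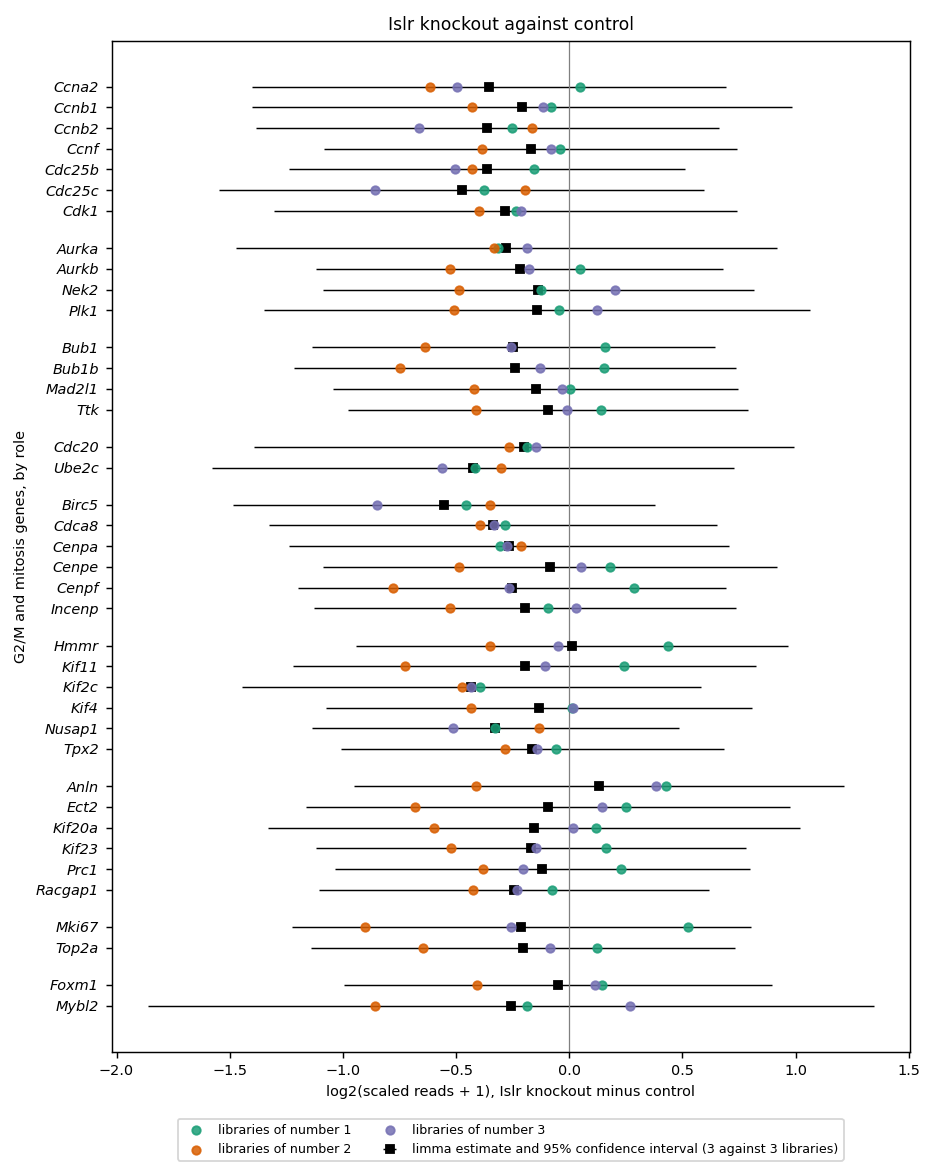
Islr knockout minus control in log2(scaled reads + 1) (horizontal axis) for each gene (rows, grouped by role). Coloured points are the differences within numbers 1, 2 and 3; black squares with bars are the limma estimate over 3 against 3 libraries and its 95% confidence interval. All intervals, which are from the fit without the number as a block, cross 0. The points of number 2 are below 0 in all 39 rows.

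The cyclins and the activators of CDK1 held the cyclin B genes, the CDK1 partners of mitotic entry. Ccnb1 stood at 1708, 5482 and 1913 scaled reads in control 1, 2 and 3 (by label) and at 1613, 4070 and 1765 in Islr knockout 1, 2 and 3, the order used from here on. Ccnb2 stood at 593, 1496 and 1258 against 497, 1334 and 793. The high library was number 2 for both genes, but control 3 was close to it for Ccnb2 and far below it for Ccnb1. The ratio of Ccnb1 to Ccnb2 in FPKM was accordingly 1.77, 2.25 and 0.94 in control and 1.99, 1.88 and 1.37 in knockout, lowest in number 3 of each group. Cdk1, the kinase that both bind, stood at 2083, 5401 and 2278 against 1769, 4102 and 1963, with a log2 difference of -0.28 ± 0.45 (SE; interval -1.31 to 0.74).

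The phosphatases of the Cdc25 family remove the inhibitory phosphates from CDK1. Cdc25c, with the smallest p of this group, stood at 236, 506 and 277 scaled reads in control and 181, 442 and 152 in knockout, a log2 difference of -0.48 ± 0.47 (limma unadjusted p = 0.34). Its control library was the higher in each number, while the groups as a whole overlapped. Cdc25b differed from the set in its order, at 2258, 2979 and 1428 against 2028, 2211 and 1005: control 1 came second, and number 2 was 1.32 and 1.09 times number 1 in the 2 groups. Ccna2, the cyclin of S phase and G2, and Ccnf, which targets proteins for destruction in G2, had log2 differences of -0.35 and -0.17.

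Among the mitotic kinases, Plk1, which acts in centrosome maturation and mitotic entry, stood at 1127, 3494 and 1009 scaled reads in control and 1093, 2453 and 1099 in knockout. Outside number 2, its 4 libraries lay within 1009 to 1127. Aurkb, the kinase of the chromosomal passenger complex, stood at 828, 1724 and 688 against 857, 1195 and 608, a log2 difference of -0.22 ± 0.40. Aurka, which acts at spindle poles, and Nek2, which splits centrosomes, had differences of -0.28 and -0.14. Each was within its standard error in the fit without the block (0.52 and 0.42). With the block, the standard errors were 0.18 for Aurka and 0.21 for Nek2.

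The 4 genes of the spindle assembly checkpoint, the kinases Bub1 and Ttk, the inhibitor Mad2l1 and Bub1b, had log2 differences between -0.25 and -0.09. Bub1 stood at 825, 1711 and 695 scaled reads in control and 921, 1099 and 581 in knockout, lower in the knockout library in numbers 2 and 3 and higher in number 1. The target of this checkpoint, Cdc20, stood at 1619, 4448 and 1538 against 1423, 3700 and 1388. Ube2c, which works with the same ubiquitin ligase, stood at 2038, 5474 and 2430 against 1529, 4438 and 1645, a difference of -0.43 ± 0.50, lower in the knockout library of each number.

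In the centromere and chromosomal passenger group, Birc5 (survivin) had the largest fitted difference of the set, -0.55 ± 0.41. It stood at 1696, 3195 and 1697 scaled reads in control and 1237, 2504 and 942 in knockout. The knockout library was lower in each number, by 0.46, 0.35 and 0.85 on the log2 scale, yet Islr knockout 2 was above control 1 and control 3. Its partners in the complex had smaller fitted differences, -0.34 for Cdca8 (borealin), -0.22 for Aurkb and -0.20 for Incenp, and whether they differ from Birc5 was not tested. Cenpa, the histone H3 variant of centromeres, had a difference of -0.27, and Cenpe and Cenpf, both microtubule-binding kinetochore proteins, -0.08 and -0.25. Cenpf was 1 of 2 genes for which Islr knockout 1 came second, at 957, 1741 and 660 against 1166, 1015 and 549.

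Among spindle motors and spindle proteins, Kif2c, a microtubule depolymerase that corrects wrong attachments, stood at 1008, 2419 and 1024 scaled reads in control and 767, 1742 and 758 in knockout. Its differences within numbers were nearly alike, -0.39, -0.47 and -0.43, with a fitted -0.43 ± 0.45. Hmmr, a spindle assembly factor, was 1 of the 2 genes with a fitted difference above 0, at 858, 2190 and 874 against 1161, 1720 and 843 (0.01 ± 0.42; below 0 in the unblocked count models). Kif11, the motor that separates spindle poles, Kif4, Tpx2 and Nusap1 had differences from -0.33 to -0.13.

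The other gene above 0 was Anln, an actin-binding protein of the cleavage furrow. It stood at 2385, 5913 and 1665 scaled reads in control and 3204, 4445 and 2174 in knockout, a difference of 0.13 ± 0.47 (also below 0 in the unblocked count models). The knockout library was higher in numbers 1 and 3 and lower in number 2. Racgap1, a subunit of the centralspindlin complex, stood at 2265, 4588 and 2056 against 2152, 3417 and 1753 (-0.24 ± 0.38). Its partner Kif23, the motor Kif20a, the microtubule bundler Prc1 and the cytokinesis gene Ect2 had differences from -0.17 to -0.10.

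Mki67, the common marker of cycling cells, did not follow number 2 in the knockout group. It stood at 3074, 6874 and 2394 scaled reads in control and 4423, 3673 and 2004 in knockout. Within numbers its difference was 0.52, -0.90 and -0.26, a wider span than that of any other gene of the set, and the fitted value was -0.21 ± 0.45. Top2a stood at 5385, 11016 and 3959 against 5860, 7042 and 3733, with number 2 highest in both groups (-0.20 ± 0.41).

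Of the 2 transcription factors, Foxm1 stood at 1439, 2813 and 982 scaled reads in control and 1592, 2118 and 1063 in knockout (-0.05 ± 0.42). Mybl2, which encodes B-Myb, stood at 1162, 2636 and 428 against 1022, 1453 and 516 (-0.26 ± 0.68). Its highest library was 6.16 times its lowest, the widest range in the set, where the median gene had 3.01. Number 3 was the low pair in both groups. The FPKM ratio of Mybl2 to Foxm1 was 0.56 and 0.62 in control 3 and knockout 3 and between 0.82 and 1.19 in the other 4 libraries.

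The second comparison set the numbered pairs against each other in a limma fit with group and number, 2 libraries per number. Number 2 was above number 1 for all 39 genes, with a median log2 difference of 0.92 (median of all genes -0.01). After adjustment over all genes, 11 of 39 were called higher, where 0.58% of all genes were: Ccnb1, Ube2c, Aurka, Cdc20, Plk1, Ccnb2, Kif20a, Cdk1, Cenpa, Kif2c and Cdca8, with log2 differences from 1.05 to 1.51. The largest, Ccnb1 (1.51, limma adjusted p = 0.013), was 3.21 times higher in control 2 than in control 1 and 2.52 times higher in knockout 2 than in knockout 1. The smallest differences belonged to Cdc25b (0.26), Cenpf (0.33), Mki67 (0.45) and Kif4 (0.48), none of them called. Cenpf and Mki67 turned below 0 without control 1 or control 2. Of the other tools, edgeR called 9 of the set and DESeq2 22. When 1 library was left out, which leaves 1 residual degree of freedom, the count of 11 became 0 without control 1, control 2 or Islr knockout 1, 4 without control 3 and 7 without Islr knockout 3.

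Number 3 was below number 2 for all 39 genes, with a median of -1.20 (median of all genes 0.08), and limma called 30 of 39 lower, where 1.48% of all genes were (2.72% higher). This count depends on the test: edgeR called 0, with 38 of the 39 at an unadjusted p under 0.05, DESeq2 called 37, and limma called 10 when a mean of 10 or more was required. It was also 0 without control 2 or control 3, 1 without control 1 or Islr knockout 3, and 10 without Islr knockout 1, while all 39 genes kept their direction in each of these fits. Mybl2 had the largest difference (-2.06, adjusted p = 0.019), followed by Plk1 and Cdc20 (both -1.47). Ccnb2 (-0.50) and Nusap1 (-0.62), a protein that bundles spindle microtubules, had the smallest and were not called. Number 3 against number 1 gave a median of -0.22 with 30 genes below 0 and 0 called in limma and edgeR, against 1.97% of all genes called higher and 0.919% lower in limma. At an unadjusted p under 0.05 there were 10 genes in limma and 9 in edgeR, and DESeq2 called 3. Mybl2 (-1.21) and Ccnb2 (0.88) lay at the ends of this range.

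**Figure D4:**
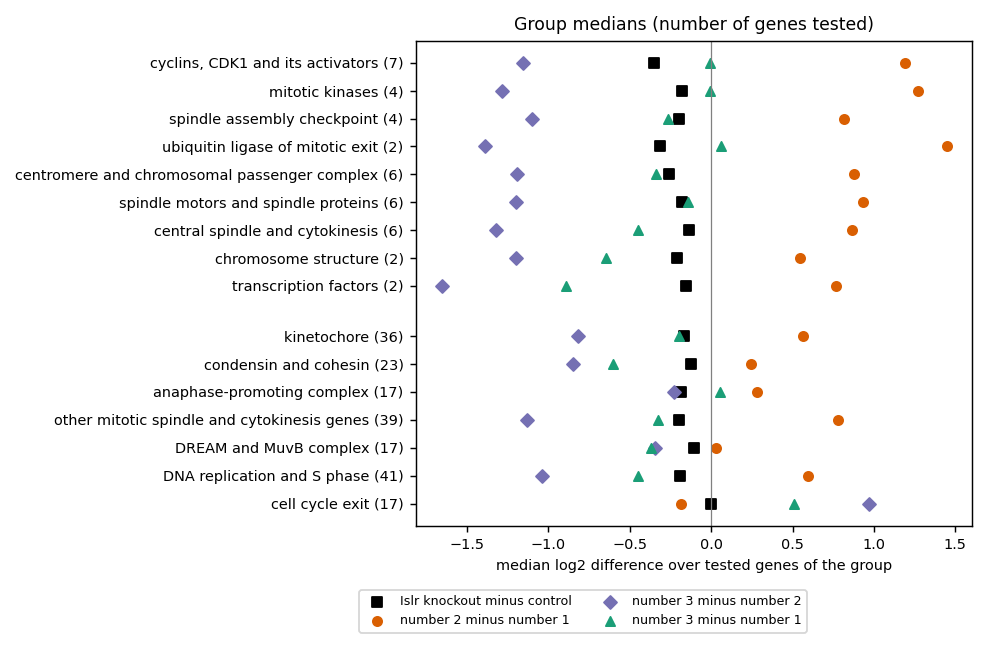
Median log2 difference (horizontal axis) over the tested genes of each role group of the set and of related gene lists (rows, with the number of genes tested), for Islr knockout minus control and for the 3 comparisons of replicate numbers. The role groups lie above 0.5 for number 2 minus number 1 and below -1 for number 3 minus number 2, and between -0.35 and -0.14 for knockout minus control.

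Other genes of mitosis, from lists that exclude the 39, were counted in the same comparisons, with no test between lists. Of 36 kinetochore genes, all were above 0 for number 2 against number 1 and below 0 for number 3 against number 2. The medians were 0.57 and -0.82, and 1 and 3 of them were called. Over all genes, 0.58% were called higher in number 2 than 1 and 1.48% lower in number 3 than 2. The same shares apply to the lists that follow in this paragraph. Spc24, a subunit of the NDC80 complex, stood at 961, 1971 and 880 scaled reads in control and 727, 1184 and 480 in knockout. Of 39 other spindle and cytokinesis genes, 4 were called higher in number 2 than 1 and 16 lower in number 3 than 2 (medians 0.78 and -1.13). The condensin and cohesin genes had medians of 0.24 and -0.85 over 23 genes, with 0 and 3 called. The condensin subunit Ncapd2 stood at 3294, 7349 and 2525 against 3304, 4577 and 1738.

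Complexes that regulate mitosis or its genes were listed apart. The 17 subunits and regulators of the anaphase-promoting complex had medians of 0.28 and -0.23, and the 17 genes of the DREAM and MuvB complexes, their relatives and NF-Y medians of 0.03 and -0.35, with 0 called in either list. E2f4, the E2F subunit of DREAM, stood at 2093, 2410 and 2026 scaled reads in control and 2138, 1784 and 1315 in knockout. The 41 replication and S phase genes had medians of 0.59 and -1.04. Of them, 1 was called higher in number 2 than 1 (0.58% of all genes) and 16 lower in number 3 than 2 (1.48%). For knockout against control, 0 genes of these 6 lists were called. The medians were -0.17 for kinetochore, -0.19 for other spindle genes, -0.12 for condensin and cohesin, -0.19 for the anaphase-promoting complex, -0.10 for DREAM and -0.19 for replication genes. In the complex, Anapc13 had the smallest p, at 553, 425 and 738 scaled reads in control and 251, 387 and 354 in knockout, with groups that did not overlap (-0.78 ± 0.31, limma unadjusted p = 0.035, adjusted p = 1.0).

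Genes of cell cycle exit and of differentiation also differed between numbers. The list of 17 cell cycle exit genes also held the D cyclins Ccnd1, Ccnd2 and Ccnd3. Of the 17, 1 was called higher (0.58% of all genes) and 2 lower (2.65% of all genes) in number 2 than in number 1. In number 3, 4 were called higher than in number 2 (2.72% of all genes) and 4 higher than in number 1 (1.97%). The D cyclin Ccnd2 was among the 4 in each case (1.31 and 1.74, limma adjusted p = 0.034 and 0.014). Cdkn1a (p21), a CDK inhibitor induced in differentiating myoblasts, stood at 25350, 3054 and 20587 scaled reads in control and 23974, 7707 and 13165 in knockout. It was called lower in number 2 than in number 1 (-2.34, limma adjusted p = 0.031), as was the retinoblastoma gene Rb1 (-1.98, 0.025). The gene called higher was another CDK inhibitor, Cdkn2b (1.72, 0.033), at 197, 557 and 480 scaled reads in control and 145, 559 and 874 in knockout. Myog, the factor of myoblast differentiation, stood at 43370, 417 and 43261 in control and 37228, 1998 and 5737 in knockout. The 2 libraries with the most mitotic RNA thus had the least Myog and Cdkn1a. The library labelled Islr knockout 3 held little Myog too, yet the 39 genes had their lowest summed FPKM and their lowest share of reads there. Of 25 differentiation genes, 25 were below 0 in number 2 against number 1, 5 of them called, against the same 2.65% of all genes.

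**Figure D5:**
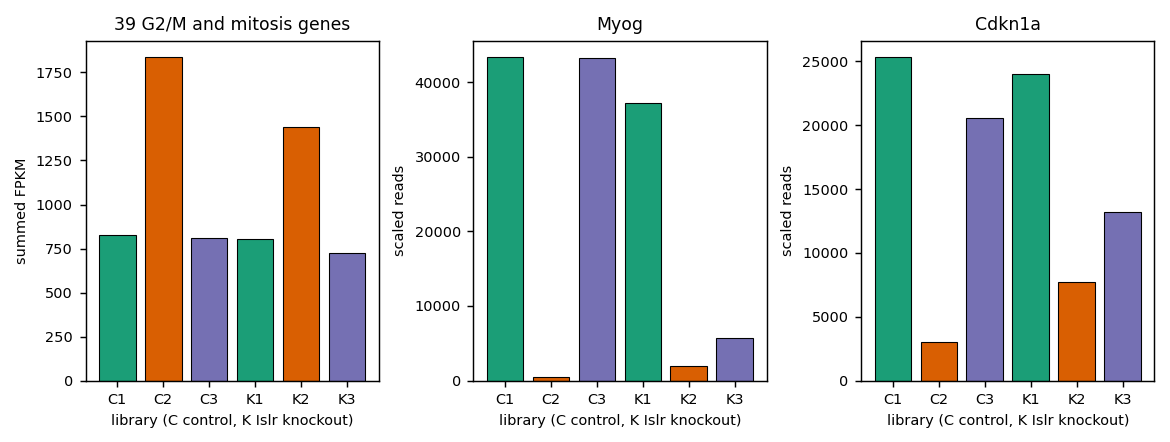
Summed FPKM of the 39 genes (left), and scaled reads of Myog (middle) and Cdkn1a (right), in libraries labelled control 1 to 3 (C1 to C3) and Islr knockout 1 to 3 (K1 to K3), coloured by number. C2 and K2 have the highest bars on the left, 1838 and 1440 FPKM, and the lowest for Myog and Cdkn1a.

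Markers of other cell types differed between the same libraries, and their part in the results above was not tested. The 10 endothelial markers summed to 457 to 745 scaled reads in control and 447 to 1703 in knockout, with 10 of 10 fitted above 0 in knockout and 0 called. None was at 0 in any library. In number 2 against number 1, 3 were called higher (0.58% of all genes), among them Pecam1 (26.7, 168 and 101 against 27.4, 328 and 198). In number 3 against number 1, 2 were called higher (1.97% of all genes). The 10 fibroblast markers summed to 768 to 1798 in control and 589 to 3327 in knockout, 8 of 10 above 0. The 9 Schwann cell markers summed to 876 to 2426 and 1991 to 3193, 7 of 9 above 0. Of 11 leukocyte markers 9 were tested, with sums of 163 to 355 and 110 to 954 and 6 above 0. The pan-leukocyte gene Ptprc was at 0 in the 3 libraries labelled control and in Islr knockout 2. The 10 pericyte and smooth muscle markers, which include Des and Acta2 that muscle cells express too, summed to 27614 to 105924 and 38769 to 92368, 6 of 10 above 0. In number 2 against number 1, 3 of these 10 were called higher and 2 lower (0.58% and 2.65% of all genes). There, 1 Schwann cell marker was called lower. In number 3 against number 1, 1 pericyte and 1 fibroblast marker were called higher (1.97% of all genes). Called lower there were 1 pericyte and 1 Schwann cell marker (0.919%). In number 3 against number 2, 1 pericyte and 1 fibroblast marker were called higher (2.72%) and 1 pericyte marker lower (1.48%).

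All 39 genes had the chromosome, start, end and strand of the GENCODE annotation of GRCm38, on 16 chromosomes. They include Ccnb1 (ENSMUSG00000041431, chromosome 13, 100778650 to 100786570), Birc5 (ENSMUSG00000017716, chromosome 11, 117849251 to 117855743), Mybl2 (ENSMUSG00000017861, chromosome 2, 163054687 to 163084688) and Mki67 (ENSMUSG00000031004, chromosome 7, 135689784 to 135716361). Another annotated gene overlaps 23 of the 39, on the opposite strand for 17, such as Elovl1 for Cdc20, Tnnc2 for Ube2c and Exosc9 for Ccna2. No source used here gives the strand handling of the counting, so reads of such pairs cannot be told apart with certainty; Tnnc2 itself held between 0 and 3.42 scaled reads. Ccnb1, Ccnb2 and Kif4 have a pseudogene named after them, with which reads may be shared.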

How the data were processed

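The authors deposited 1 table with scaled reads and FPKM per gene and library, and, per the file headers, their own comparison as log2 fold changes with raw and adjusted p-values. A second deposited file holds raw counts for a part of the genes. Tools in the submitters' processing notes, with no role or order, are HISAT2 2.0.5, HTSeq, Trimmomatic, edgeR 3.18.1 and DESeq2 1.16.1. Build, annotation and strand handling: not given in the sources used here. The scaled values are a signal that the authors made by dividing counts by a size factor. Dividing each value by that of 1 read in its library, found from the steps of the values, gave whole reads for 100.0% of values (within 0.01), equal to the deposited raw count for all 480 genes in both files. There were 36 damaged lines, which were dropped, and 6 per-sample FPKM columns of the second file were not used. The column of control 1 has 2 digits exchanged against its label.

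Tests were limma 3.58.1 (trend, robust) on log2(scaled reads + 1). A mean of 1 or more was required, which 20344 genes met. Tests were two-sided, Benjamini-Hochberg adjusted over all genes, threshold 0.05, without a replicate block. On the recovered reads, edgeR 4.0.16 (quasi-likelihood) and DESeq2 1.42.0 were alternatives. The scripts were tested on simulated counts drawn without an effect of replicate number, so that test checks the code only. FPKM were used for levels between genes, for ratios of 2 genes and for the summed level of the set in each library. The 39 members and the gene lists were chosen with earlier results of these data known. Named were 11 fixed members, the smallest p in each role group, the 4 most and 4 least changed, the 3 highest and 3 lowest per length, from other lists the 2 smallest p at most, and Islr, Myog and Myod1. Pecam1, Ptprc, Pax7, Calcr, Cd34, Cdkn1a, Cdkn2b, Rb1, Ccnd1, Ccnd2, Ccnd3 and the remaining members were named after their values were seen.

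After subtraction of group means, control and knockout libraries with the same number had correlations of 0.689, 0.633 and 0.625 (14280 genes), so numbers were taken to pair the libraries. This pairing comes from the data; the labels do not say what a number marks.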

Additional observations from a re-analysis of the deposited data

How the results depend on the processing

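For knockout against control, 0 of the 39 genes were called in any of the alternatives run. These were pseudocounts of 0.1 and 0.5, no filter and a mean of at least 10, TMM, upper-quartile and library size scaling, limma without the robust option, edgeR, DESeq2 and each omitted library. With the replicate block, DESeq2 called 7 of all genes, while limma and edgeR called 0; the pairing by number changed no call in the set. Without the block, Anln and Hmmr turned below 0 in edgeR (-0.0056 and -0.0595), in edgeR with DESeq2 size factors (-0.020 and -0.074) and in DESeq2 (-0.021 and -0.074); the cause was not tested. Among all genes, number 2 against 1 gave 658 calls in limma, 353 in edgeR and 1223 in DESeq2, with 22 of the set in DESeq2. Number 3 against 1 gave 588, with 273 at a mean of at least 10, 144 in edgeR and 1458 in DESeq2, with 3 of the set. Number 3 against 2 gave 855, with 272 at a mean of at least 10, 40 in edgeR and 2029 in DESeq2, and 10, 0 and 37 of the set. Omitting 1 library moved the calls among all genes from 13 to 608 for number 2 against 1, from 1 to 1214 for 3 against 1 and from 1 to 2504 for 3 against 2, and those of the set from 0 to 12, 0 to 1 and 0 to 36. The fitted log2 difference of knockout against control crossed 0 on omission of a library for 33 genes, lowest to highest: Anln (-0.26 to 0.66), Aurka (-0.75 to 0.22), Aurkb (-0.48 to 0.18), Bub1 (-0.50 to 0.15), Bub1b (-0.51 to 0.25), Ccna2 (-0.67 to 0.10), Ccnb1 (-0.63 to 0.32), Ccnf (-0.46 to 0.23), Cdc20 (-0.67 to 0.30), Cdca8 (-0.71 to 0.067), Cdk1 (-0.66 to 0.15), Cenpa (-0.66 to 0.11), Cenpe (-0.47 to 0.34), Cenpf (-0.57 to 0.12), Ect2 (-0.46 to 0.44), Foxm1 (-0.39 to 0.36), Hmmr (-0.25 to 0.46), Incenp (-0.53 to 0.22), Kif11 (-0.55 to 0.27), Kif20a (-0.51 to 0.42), Kif23 (-0.50 to 0.22), Kif4 (-0.51 to 0.23), Mad2l1 (-0.42 to 0.26), Mki67 (-0.53 to 0.23), Mybl2 (-0.94 to 0.38), Nek2 (-0.41 to 0.31), Plk1 (-0.53 to 0.43), Prc1 (-0.38 to 0.27), Racgap1 (-0.51 to 0.12), Top2a (-0.52 to 0.22), Tpx2 (-0.45 to 0.18), Ttk (-0.35 to 0.28), Ube2c (-0.92 to 0.0064). For number 2 against 1, Cenpf ranged from -0.072 to 0.73 and Mki67 from -0.11 to 1.00 on such omissions.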
